A study of Mus musculus with 8 samples.

Results

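The miR-181 family of the mouse was followed in small RNA libraries of the left spinal cord. Its members here were the rows of the deposited table named mmu-miR-181a-5p, mmu-miR-181a-1-3p, mmu-miR-181a-2-3p, mmu-miR-181b-5p, mmu-miR-181c-5p, mmu-miR-181c-3p and mmu-miR-181d-5p, given below without the species prefix, 7 of the 1396 miRNAs listed. In the 4 libraries labelled bone cancer pain, BCP from here on, C57BL/6 mice had received cells of LL/2, a mouse Lewis lung carcinoma line, placed inside the left femur, in its marrow. In the 4 sham libraries, C57BL/6 mice had received normal saline at that site. The sources used here give no age, sex, spinal segment or time after implantation. Whether each library is 1 animal is not stated either, and a p-value here speaks only of library-to-library spread, which could be technical.

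A miRNA is cut from a hairpin precursor, which can yield a mature strand from its 5′ side (5p) and another from its 3′ side (3p). Bases 2 to 8 of the mature strand, the seed, do most of the pairing with target mRNAs, so strands that share a seed can share targets. The miR-181 family is known for setting the sensitivity of developing T cells to antigen, and it is also abundant in brain, where neurons and astrocytes express it. Its 5p strands are the usual guide strands.

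The 4 miR-181 5p strands have the same seed and differ from base 9 onward, so their sequences are shown first, from RefSeq (GRCm38.p6), 5′ to 3′, with the seed in capitals.
miR-181a-5p: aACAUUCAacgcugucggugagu
miR-181b-5p: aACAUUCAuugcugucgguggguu
miR-181c-5p: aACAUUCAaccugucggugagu
miR-181d-5p: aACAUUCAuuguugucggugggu

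Counting from 1 at the 5′ end and with the base of miR-181a-5p given first, miR-181b-5p differed from miR-181a-5p by A9U, C10U and A21G and was 1 base longer. miR-181c-5p equalled miR-181a-5p with position 11 left out. miR-181d-5p differed from miR-181b-5p by C12U alone, besides ending 1 base earlier. How reads with a mismatch were assigned between such near neighbours is not given in the sources used here. Of the 1180 listed names with a RefSeq mature sequence, only these 4 had the seed ACAUUCA.

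The 3p strands of the family fall into separate seeds, and they are shown because they alone tell the copies of miR-181a apart.
miR-181a-1-3p: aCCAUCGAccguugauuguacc
miR-181a-2-3p: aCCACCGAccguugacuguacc
miR-181c-3p: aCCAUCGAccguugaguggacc

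miR-181a-1-3p and miR-181c-3p shared the seed CCAUCGA and differed by U16G and U19G, with the base of miR-181a-1-3p first. miR-181a-2-3p differed from miR-181a-1-3p by U5C, inside the seed, and by U16C.

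The members come from 3 pairs of hairpin genes. Mir181a-1 (chromosome 1, 137966455 to 137966541, plus strand, GRCm38, the build also called mm10) lies 97 bases before Mir181b-1, and both lie in an intron of the noncoding transcript Gm4258 on the same strand. Both also lie in an intron of the noncoding gene Gm26936 on the opposite strand. Mir181b-1 overlaps an exon of a further noncoding gene of its own strand, A430106G13Rik. The nearest protein-coding gene to this pair in GENCODE M21 is Ptprc, which encodes the leukocyte surface protein CD45. Mir181a-2 (chromosome 2, 38852735 to 38852810, plus strand) lies 1019 bases before Mir181b-2, in an intron of the nuclear receptor gene Nr6a1 but on the opposite strand. Mir181c (chromosome 8, 84178873 to 84178961, minus strand) lies 85 bases before Mir181d (84178716 to 84178787), both in an intron of Nanos3, a germ cell gene of the same strand. miR-181a-5p and miR-181b-5p are made identically from chromosomes 1 and 2, so their reads cannot be assigned to a locus. The 2 hairpins of miR-181a are shown with both mature strands in capitals.
Mir181a-1: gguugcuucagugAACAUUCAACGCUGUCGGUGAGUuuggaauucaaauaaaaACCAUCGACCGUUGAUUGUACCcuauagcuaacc
Mir181a-2: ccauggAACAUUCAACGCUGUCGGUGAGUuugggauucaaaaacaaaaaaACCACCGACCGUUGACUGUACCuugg

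The libraries held 5220739 to 9260169 reads of listed miRNAs. Levels are in CPM, the reads of a miRNA scaled to a library total of 1000000 reads. Listed miRNAs of neural tissue and the posterior body axis were present throughout. The summed level of these 5 was 202222 to 246453 CPM in BCP and 215181 to 250183 CPM in sham. Among them miR-10b-5p stood at 89970.5 to 122639 CPM and miR-9-5p at 83597 to 103034 CPM, against 748 to 1271 CPM for miR-124-3p. The summed level of 5 leukocyte miRNAs was 542 to 633 CPM in BCP and 480 to 675 CPM in sham, and none of them was at 0 in any library. The summed level of 4 skeletal muscle miRNAs varied most, 6055 to 16927 CPM in BCP and 5368 to 28955 CPM in sham. The library sham 4 stood apart from the rest: of the 605 miRNAs tested, 251 (41.5%) had their highest CPM there, and the median miRNA lay 0.21 above its 8-library mean in log2(CPM + 1). In these bulk samples, fewer cells of a type and less RNA per cell cannot be told apart.

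The family was led by miR-181a-5p, the 20th most abundant of the listed miRNAs, followed by b-5p, d-5p, a-1-3p, a-2-3p, c-3p and c-5p. Within libraries miR-181a-5p exceeded miR-181c-5p 290-fold on the log2(CPM + 1) scale. miR-181a-5p stood at 6027, 6191, 7110 and 7748 CPM in BCP libraries 1 to 4, against 5022, 6523, 5802 and 10398 CPM in sham libraries 1 to 4. Sham held both its lowest and its highest library, and the BCP values lay between them. miR-181b-5p, its partner in both clusters, stood at 1669, 1736, 2163 and 2116 CPM in BCP, against 1292, 1843, 1706 and 3012 CPM in sham. Sham 1 and sham 4 were again the lowest and the highest library.

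miR-181d-5p and miR-181c-5p, cut from neighbouring hairpins on chromosome 8, were far apart in level. miR-181d-5p stood at 307, 313, 389 and 319 CPM in BCP, against 325, 323, 349 and 416 CPM in sham. Sham 4 and BCP 3 were the highest libraries, and the groups overlapped. miR-181c-5p stood at 21.2, 21.2, 24.2 and 20.9 CPM in BCP, against 23.2, 21.3, 19.3 and 26.3 CPM in sham, resting on 173 to 288 reads a library. The 4 strands have the same seed, and miR-181a-5p made up 74.9% ± 1.05 of their summed CPM in BCP and 74.8% ± 0.751 in sham (SD, n = 4 each). miR-181b-5p made up 21.2% ± 0.747 in BCP and 20.99% ± 1.10 in sham. miR-181d-5p made up 3.69% ± 0.388 and miR-181c-5p 0.244% ± 0.0267 in BCP, against 4.004% ± 0.820 and 0.257% ± 0.0662 in sham.

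**Figure D1:**
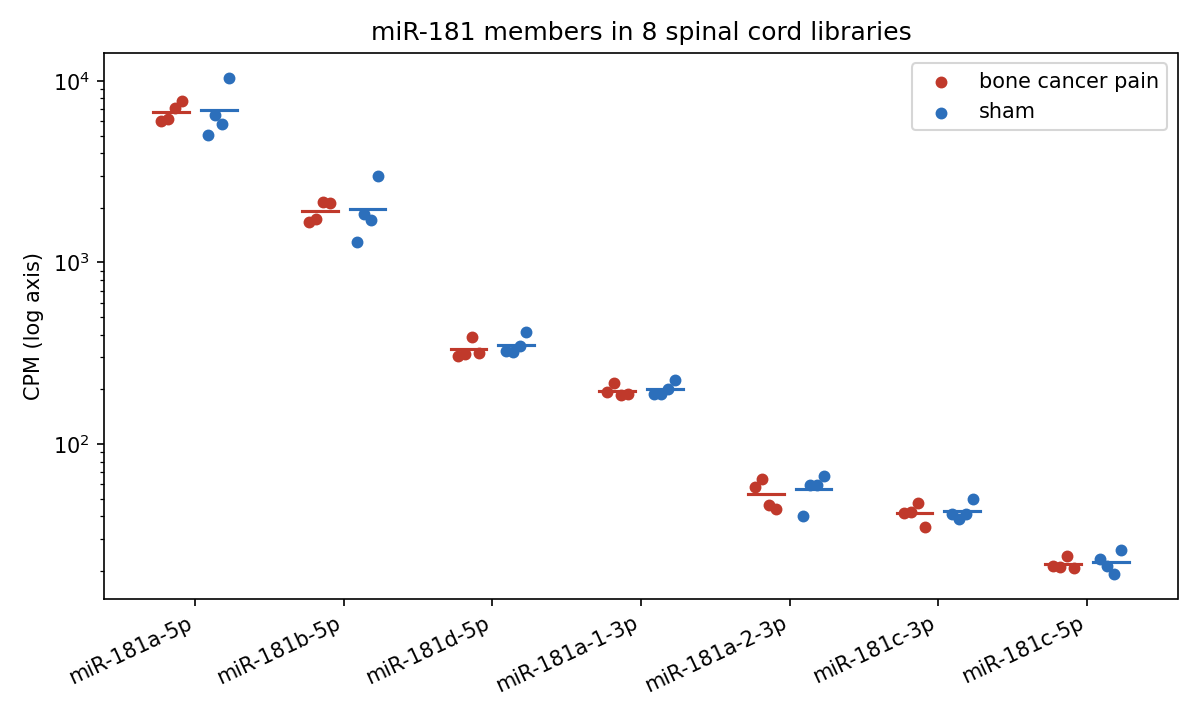
CPM on a log axis of each member in the 4 BCP and 4 sham libraries; points are libraries and bars are group means. The groups overlapped for every member, where 3.64% of the 605 tested miRNAs did not overlap. Sham 4 was the highest library for each of the 7, and for 41.5% of the 605. After median-of-ratios scaling sham 4 was the highest for miR-181a-5p (8726 CPM) and miR-181b-5p (2528 CPM) but for no other member.

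Among the 3p strands, miR-181a-1-3p was the most abundant and the steadiest. It stood at 193, 218, 187 and 190 CPM in BCP, against 188, 189, 202 and 224 CPM in sham. No library was more than 1.20 times another. miR-181a-2-3p stood at 58.0, 64.1, 46.0 and 43.7 CPM in BCP, against 40.1, 59.4, 59.9 and 66.4 CPM in sham. Its lowest library was sham 1, next to BCP 4 and 3. miR-181c-3p stood at 41.7, 42.2, 47.6 and 34.8 CPM in BCP, against 41.3, 38.5, 41.1 and 49.6 CPM in sham, with BCP 4 the lowest and sham 4 the highest.

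All 21 pairs of members differed in level within libraries, by an exact sign-flip permutation test over the 8 libraries with Benjamini-Hochberg adjustment over the pairs. For 20 pairs the order was the same in 8 of 8 libraries (adjusted exact p = 0.0082). The weakest step was that between miR-181a-2-3p and miR-181c-3p, with a mean log2 difference of 0.35 ± 0.265 (SD) and miR-181a-2-3p higher in 6 of 8 libraries (adjusted exact p = 0.0312). That step missed the threshold when any of 6 libraries was left out, with an adjusted exact p = 0.0625 each time, and passed without BCP 3 or sham 1, the 2 libraries of opposite order. The neighbours miR-181d-5p and miR-181a-1-3p differed 1.71-fold and miR-181c-3p and miR-181c-5p 1.86-fold. Mature strands of 22 to 24 bases are counted whole, so these levels were not scaled by length; sequence-dependent capture during library preparation also enters a level comparison between strands and was not tested.

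The strand balance of miR-181c was the reverse of that of miR-181a. miR-181c-3p exceeded miR-181c-5p in each of the 8 libraries, with ratios of 1.97, 2.00, 1.97 and 1.67 in BCP and 1.78, 1.81, 2.13 and 1.89 in sham. For every 100 CPM of miR-181a-5p, which 2 loci supply, there were 2.95 ± 0.496 CPM of miR-181a-1-3p in BCP and 3.07 ± 0.705 in sham, and 0.802 ± 0.231 CPM of miR-181a-2-3p in BCP and 0.845 ± 0.168 in sham (SD, n = 4 each). The 3p strand was the minor one for miR-181a and the major one for miR-181c, and the strands with the shared 3p seed, miR-181a-1-3p and miR-181c-3p, lay on opposite sides of this balance.

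The 3p strands of chromosome 1 exceeded those of chromosome 2 in every library. miR-181a-1-3p was 3.33, 3.40, 4.05 and 4.34 times miR-181a-2-3p in BCP and 4.69, 3.18, 3.38 and 3.38 times in sham. Over the 8 libraries, 16851 reads were of miR-181a-1-3p and 4657 of miR-181a-2-3p, a ratio of 3.62. The rows miR-181b-1-3p and miR-181b-2-3p, which are not among the 7 members, had 1388 and 49 reads, a ratio of 28.3 that ran from 18.4 to 36.6 among libraries. miR-181b-2-3p rested on 4 to 9 reads a library. The chromosome 1 strand was the more abundant for both genes of the cluster. miR-181d-3p, the third further row with a miR-181 number, had 0 to 3 reads a library. For counting error only, 3 reads, the limit that a count of 0 allows, equal 0.222 to 0.390 CPM across the libraries.

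In BCP against sham, no member changed beyond the spread between libraries. The comparison asks which spinal miRNAs differ when the femur of the same side carries a tumour. With limma on log2(CPM + 1), 0 of the 7 members and 0 of the 605 miRNAs tested (0%) passed an adjusted p of 0.05. An unadjusted p under 0.05 was reached by 0 of the 7 members and by 28 of the 605 tested (4.63%). With edgeR on reads recovered from the CPM the counts were 0 of 7 and 43 of 605 (7.11%), and with DESeq2 0 of 7 and 31 of 605 (5.12%). Neither tool called any miRNA after adjustment (0 of 605 with each). BCP and sham overlapped for all 7 members, where 22 of the 605 (3.64%) did not overlap. All 7 members passed the filter of a mean of 1 CPM.

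The most abundant strands had log2 fold changes near 0 and the widest intervals. miR-181a-5p averaged 6769 ± 808 CPM in BCP and 6936 ± 2388 CPM in sham, for a log2 fold change of 0.01 (95% interval -0.43 to 0.46, limma adjusted p = 0.989). miR-181b-5p averaged 1921 ± 254 CPM in BCP and 1963 ± 738 CPM in sham, for a log2 fold change of 0.03 (95% interval -0.46 to 0.52). The signs of both log2 fold changes are above 0 although the mean CPM is lower in BCP, since a mean of CPM gives sham 4 more weight than a mean of log values does. Without sham 4 the log2 fold changes were 0.23 for miR-181a-5p and 0.26 for miR-181b-5p, and neither passed the threshold.

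None of the chromosome 8 strands passed the test. miR-181d-5p averaged 332 ± 38.3 CPM in BCP and 353 ± 43.6 CPM in sham, for a log2 fold change of -0.09 (95% interval -0.38 to 0.20, limma adjusted p = 0.943). miR-181c-5p averaged 21.9 ± 1.54 CPM in BCP and 22.5 ± 2.95 CPM in sham, and miR-181c-3p 41.6 ± 5.27 CPM in BCP and 42.6 ± 4.798 CPM in sham, both with a log2 fold change of -0.04. Without sham 4 both were at 0.04. Both 3p strands of miR-181a had log2 fold changes below 0, and neither passed the test. miR-181a-1-3p averaged 197 ± 14.2 CPM in BCP and 201 ± 17.0 CPM in sham (log2 fold change -0.03), and miR-181a-2-3p 53.0 ± 9.71 CPM in BCP and 56.4 ± 11.4 CPM in sham (log2 fold change -0.08). Of the 7 log2 fold changes 5 were below 0, against 51.7% of the 605 tested, and their median was -0.04 against -0.01 for all tested. The 95% intervals of all 7 members lay within 1.5-fold in both directions, from 0.704-fold at the lowest bound to 1.44-fold at the highest.

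**Figure D2:**
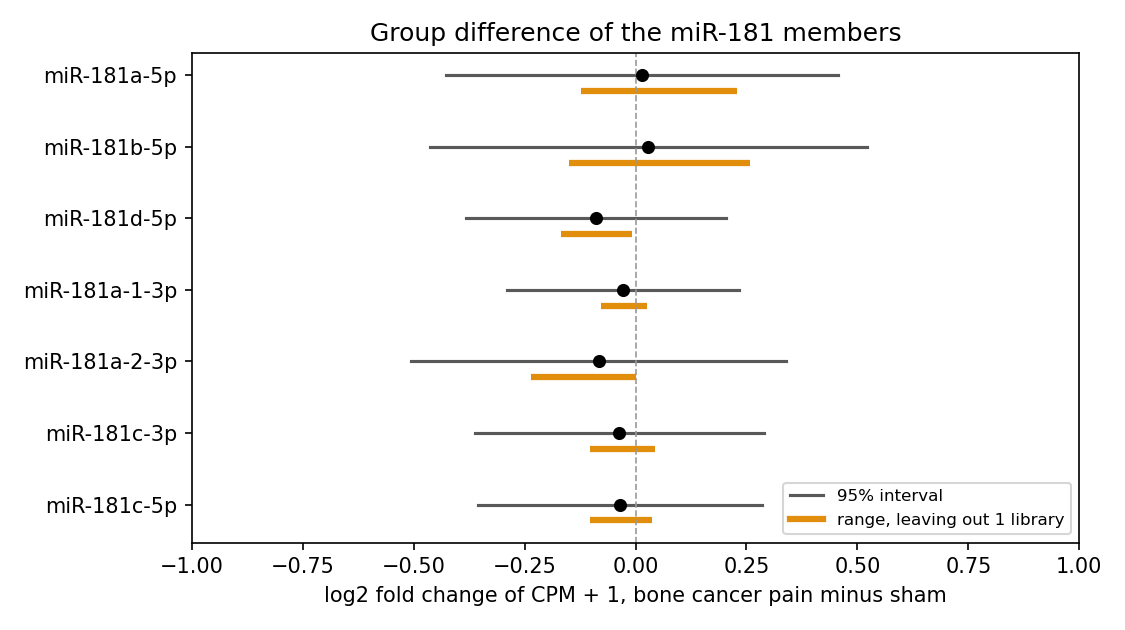
Log2 fold change of CPM + 1, BCP minus sham, for each member (points), with its 95% interval from limma (grey) and its range when each library in turn was left out (orange). Every interval includes 0 and lies between -0.51 and 0.52.

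miR-181b-1-3p, the 3p strand of Mir181b-1 and no member, averaged 18.5 ± 3.44 CPM in BCP and 14.8 ± 2.40 CPM in sham, for a log2 fold change of 0.30 (95% interval -0.10 to 0.70, limma adjusted p = 0.943). The groups overlapped, since sham 4 stood at 18.3 CPM and BCP 2 at 13.6 CPM.

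The summed level of the 4 strands with the shared seed also did not differ detectably. It was 8025, 8261, 9686 and 10204 CPM in BCP, against 6662, 8711, 7876 and 13852 CPM in sham. The log2 difference, BCP minus sham, was 0.01 (two-sided exact permutation p = 0.971 over the 70 arrangements of the labels, where the smallest possible p is 0.0286). Its sign turned without BCP 3, BCP 4, sham 1 or sham 3, with values down to -0.13, and was -0.22 without both sham 1 and sham 2. Leaving out sham 4 gave a log2 difference of 0.22 (exact permutation p = 0.229).

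The ratios between members showed no detectable difference between the groups. They were tested as differences in log2(CPM + 1) within a library. Of 7 ratios, 0 passed a two-sided exact permutation test over samples, and the smallest unadjusted exact p was 0.629. miR-181b-5p to miR-181a-5p was 0.284 ± 0.0140 in BCP and 0.281 ± 0.0165 in sham (SD, n = 4 each). miR-181d-5p to miR-181c-5p was 15.1 ± 0.710 in BCP and 15.8 ± 1.70 in sham. miR-181c-3p to miR-181c-5p was 1.90 ± 0.157 in BCP and 1.90 ± 0.158 in sham, a log2 difference of -0.00091. The ratio of miR-181a-1-3p to miR-181a-2-3p was 3.78 ± 0.498 in BCP and 3.66 ± 0.696 in sham.

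**Figure D3:**
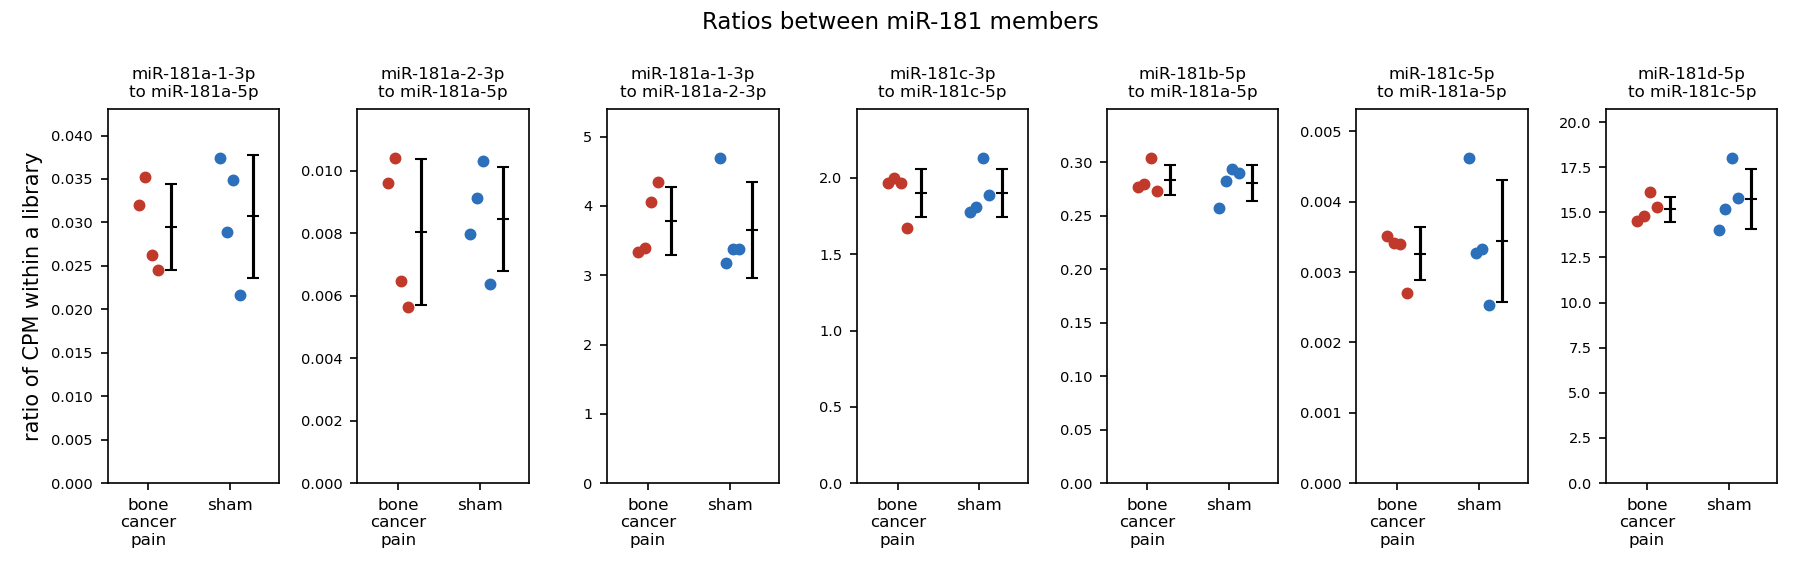
Ratio of CPM between members within each library, BCP to the left of sham; points are libraries, and black bars are the mean ± SD of 4. Each panel has its own axis from 0, and the groups overlap in all 7.

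miR-181a-5p and miR-181b-5p moved together over the libraries. Their log2(CPM + 1) values had a Pearson r of 0.98 (exact permutation p = 0.000223, adjusted over 21 pairs 0.00469) and a Spearman rho of 0.95 (exact permutation p = 0.00114, adjusted 0.024). The r was 0.93 without sham 1 and sham 4, the 2 libraries farthest from the median, 0.97 after median-of-ratios scaling and 0.96 without sham 4. Within BCP and within sham, with 4 libraries each and too few for a test, it was 0.93 and 0.99. On deviations from the group means the r was 0.98, with an exact adjusted permutation p of 0.109 when libraries were exchanged within groups only. The strands share their clusters on chromosomes 1 and 2, and whether this has a part in their r was not tested.

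No other pair passed after adjustment. miR-181a-5p and miR-181a-1-3p, both cut from Mir181a-1, with Mir181a-2 as a further source of the 5p strand, had r = 0.49 (exact permutation adjusted p = 0.435), or -0.37 after median-of-ratios scaling and -0.17 without sham 4. For miR-181a-5p and miR-181a-2-3p the r was 0.33, or -0.90 without sham 1 and sham 4. The chromosome 8 strands had r = 0.73 for miR-181c-5p with miR-181c-3p, 0.72 for miR-181c-5p with miR-181d-5p and 0.78 for miR-181c-3p with miR-181d-5p, each with an exact permutation adjusted p of 0.143. Without BCP 3 and sham 4, the 2 libraries farthest from the median of miR-181c-5p, its r was 0.10 with miR-181c-3p and -0.51 with miR-181d-5p. Leaving out the farthest libraries narrows the range of miR-181c-5p, which can by itself lower r. Without sham 4 alone its r was 0.54 with miR-181c-3p and 0.42 with miR-181d-5p. Without BCP 4 and sham 4 the r of miR-181c-3p with miR-181d-5p was 0.71. After median-of-ratios scaling the r was 0.48 for miR-181c-5p with miR-181c-3p, 0.06 for miR-181c-5p with miR-181d-5p and 0.54 for miR-181c-3p with miR-181d-5p. As deposited, 20 of the 21 r values were above 0, while after that scaling 10 were and without sham 4 11 were.

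The members also had different SDs over the libraries, which were not tested against each other. The SD of log2(CPM + 1) over the 8 libraries was 0.32 for miR-181a-5p, larger than that of 74.4% of the 605 tested, and 0.10 for miR-181a-1-3p, larger than that of 1.98%. It was 0.36 for miR-181b-5p and 0.27 for miR-181a-2-3p. It was 0.13 for miR-181c-5p, where counting error alone gives about 0.096, and 0.16 for both miR-181c-3p and miR-181d-5p. After median-of-ratios scaling miR-181a-5p had an SD of 0.22, larger than that of 49.3% of the tested, and miR-181d-5p one of 0.08, larger than that of 0.826%. The SD of miR-181a-1-3p was then 0.113, larger than that of 6.12% and above the 0.0794 of miR-181c-5p and the 0.0816 of miR-181d-5p. For miR-181b-5p it was 0.258, for miR-181a-2-3p 0.277 and for miR-181c-3p 0.122.

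Sham 4 and sham 1 lay farthest from the 8-library means of miR-181a-5p and miR-181b-5p. In sham 4, miR-181a-5p and miR-181b-5p lay 0.63 and 0.67 above their 8-library means in log2(CPM + 1), against 0.18 for miR-181a-1-3p, 0.29 for miR-181d-5p and 0.21 for the median of all tested. In sham 1 they lay 0.42 and 0.55 below, with miR-181a-2-3p 0.42 below and miR-181a-1-3p 0.08 below. Sham 1 had the highest skeletal muscle sum, 28955 CPM. Sham 4 had the highest oligodendrocyte sum, 2844 CPM over 3 miRNAs, and the highest leukocyte sum. It also had the lowest vascular and erythroid sums, 16705 and 667 CPM over 3 miRNAs each. The 5 leukocyte miRNAs did not go the same way in sham 4. There miR-342-3p and miR-150-5p were at their highest of the 8 libraries, 364 and 264 CPM. In the same library miR-142a-3p, miR-142a-5p and miR-223-3p were at their lowest, 8.46, 35.3 and 2.86 CPM. The oligodendrocyte miRNAs were unequal, and only miR-219a-2-3p, at 2476 CPM, had its highest library in sham 4. The other oligodendrocyte miRNAs were highest in BCP libraries, miR-338-3p at 456 CPM and miR-219a-5p at 17.4 CPM. All these sums are of CPM as deposited, and sham 4 had the highest median-of-ratios factor, 1.192. Whether the differences between libraries in these sums had a part in the miR-181 levels was not tested.

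**Figure D4:**
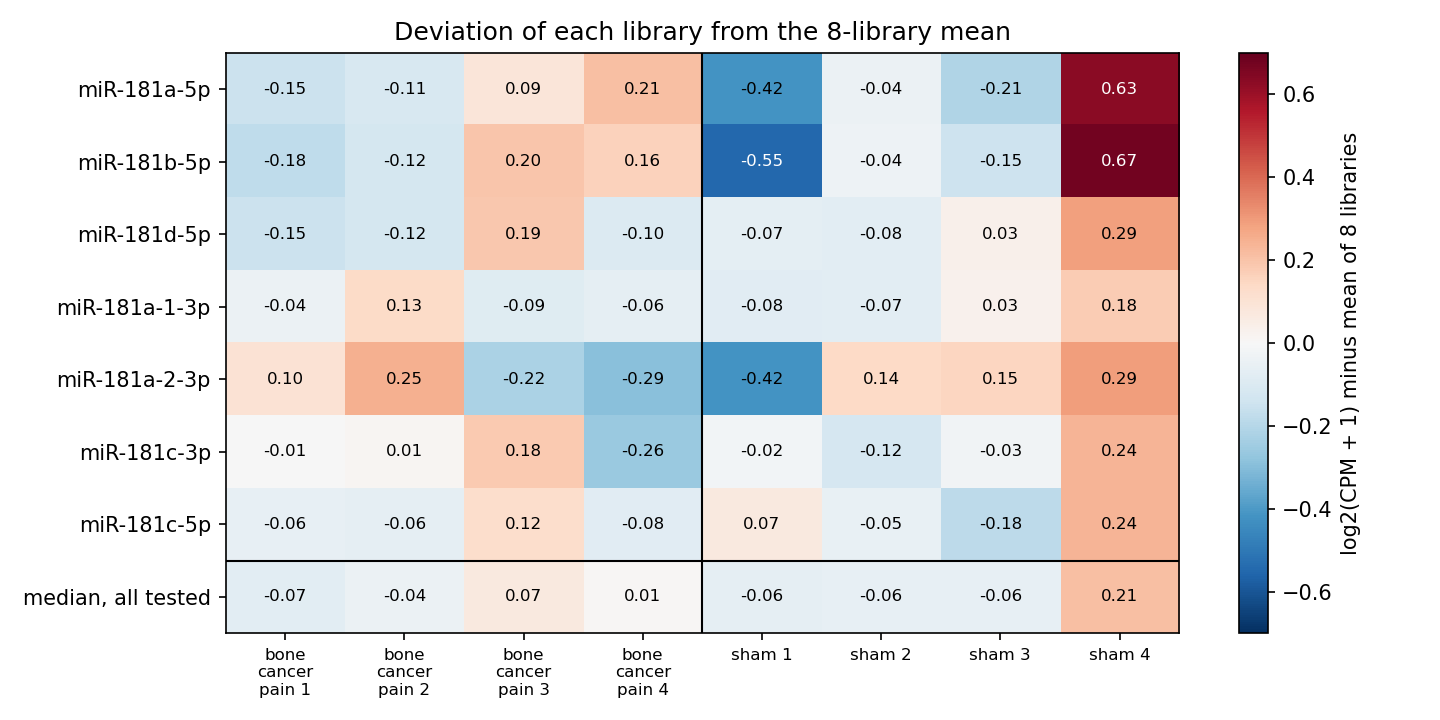
Log2(CPM + 1) of each member in each library minus its mean over the 8 libraries, with the median over all 605 tested miRNAs in the bottom row; red is above the mean and blue below. miR-181a-5p and miR-181b-5p share their pattern, highest in sham 4 and lowest in sham 1, while miR-181a-1-3p stays between -0.09 and 0.18.

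The miRNAs outside the family whose levels were most like the summed 5p strands over the 8 libraries were miR-708-5p (Pearson r 0.98), miR-151-5p (0.97), miR-125b-1-3p (0.97), miR-674-5p (0.96) and miR-98-5p (0.96). Their r values ran from 0.891 to 0.969 after median-of-ratios scaling and from 0.906 to 0.965 without sham 4. miR-708-5p averaged 184 ± 19.4 CPM in BCP and 186 ± 48.3 CPM in sham, with 257 CPM in sham 4. miR-98-5p, a let-7 family member, averaged 241 ± 30.1 CPM in BCP and 243 ± 60.4 CPM in sham. These r values are a description over 8 libraries that share their scaling, and they were the highest 5 of the tested miRNAs by choice. The family's own miR-181a-1-3p had r = 0.49 and miR-181c-5p r = 0.58 with the same sum. Of these, miR-181c-5p is a term of the sum and miR-181a-1-3p is not.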

How the data were processed

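Small RNA of 4 bone cancer pain (BCP) and 4 sham libraries was analysed. Per the labels' protocols RNA was extracted with TRIzol; those protocols describe rRNA removal and fragmentation, although small RNA is what the sample descriptions name. The submitters' processing notes name fastp, STAR, Bowtie, Salmon and the build mm10, with neither versions nor roles. How adapters were removed is not stated there. CPM deposited by the authors were scaled to each library's total and rounded to 2 decimals, for 1396 miRNAs; the listed values of a library sum to 669252 to 701908, so the total also counts other reads. Columns that could not be mapped to a sample numbered 0. The value of 1 read was taken from the steps between low CPM values; 99.7% to 100% of values above 0 were whole reads within 0.0051 CPM, and library totals were 7686762 to 13498956 reads. In BCP 3 the step, 0.100 CPM, is near 0.1, but 16.6% of the values there from 1 CPM up are multiples of 0.1. Chi-square over degrees of freedom between libraries within a group was 31.8 for BCP 1 and BCP 2 and 190 to 503 for every other pair. Why BCP 1 and BCP 2 were the closest was not tested, and no library was treated as a copy.

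The 605 miRNAs that averaged 1 CPM or more were tested, and 791 were left out. limma 3.58.1 in R 4.3.3 was run on log2(CPM + 1) two-sided and with a trended prior variance, with Benjamini-Hochberg adjustment over all 605, threshold 0.05, without a replicate block. edgeR 4.0.16 and DESeq2 1.42.0 on recovered reads were added as alternatives. Single values per library were tested by exact permutation. The members, marker lists and tests were chosen with earlier results of these data known. The text names the 7 members, other rows with a miR-181 number and the 5 tested miRNAs with the highest Pearson r with the summed 5p strands; marker miRNAs come from fixed lists.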

Additional observations from a re-analysis of the deposited data

Results flagged for a closer look

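In each group of 4 libraries, the highest or lowest value was called far from the rest when its gap to the nearest other took up more of the group's range than Dixon's 95% critical value allows. This was applied to 36 groups of values, and chance alone passes this limit in about 1 in 20 groups; 6 passed it. BCP 3 was far above the others for 2 strands of chromosome 8, with 24.2 CPM of miR-181c-5p and 389 CPM of miR-181d-5p. BCP 4 was far below the others for 2 ratios, with a ratio of miR-181c-3p to miR-181c-5p of 1.67 and a ratio of miR-181c-5p to miR-181a-5p of 0.00270. Sham 1 was far above the others for the ratio of miR-181a-1-3p to miR-181a-2-3p, at 4.69. Sham 4 was far above the others for miR-181b-1-3p, at 18.3 CPM. Sham 4 did not pass the limit for miR-181a-5p or miR-181b-5p. The flags on CPM are for values as deposited and depend on scaling. After median-of-ratios scaling miR-181c-5p stood at 22.21, 21.76, 22.46 and 20.39 CPM in BCP libraries 1 to 4. miR-181d-5p then stood at 321, 321.8, 361.3 and 311.1 CPM in BCP, and miR-181b-1-3p at 13.77, 14.15, 14.52 and 15.39 CPM in sham.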

How the results depend on the processing

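None of the settings run, limma, edgeR and DESeq2 included, called any miRNA after adjustment. Fold changes and differences below are log2 values, BCP minus sham, and are given with the correlations whose sign turned; the cause was not tested. Alternatives chosen after seeing the data were edgeR, DESeq2, the settings without sham 1 and sham 2 and the correlations without sham 4. With quantile normalization miR-181a-5p was at -0.105 and miR-181b-5p at -0.0121, and without sham 1 and sham 2 they were at -0.206 and -0.248. With array weights miR-181a-1-3p was at 0.066, miR-181a-2-3p at 0.0521 and miR-181c-3p at 0.0372. The summed 5p strands were at -0.00041 with CPM rescaled to the listed miRNAs and at -0.215 without sham 1 and sham 2. Without those libraries the log2 ratio difference was 0.0898 for miR-181a-1-3p to miR-181a-5p, -0.0422 for miR-181b-5p to miR-181a-5p and 0.161 for miR-181c-5p to miR-181a-5p.

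Leaving out 1 library gave -0.122 to 0.228 for miR-181a-5p, -0.149 to 0.258 for miR-181b-5p, -0.0775 to 0.0261 for miR-181a-1-3p, -0.236 to 0.00144 for miR-181a-2-3p, -0.103 to 0.038 for miR-181c-5p, -0.103 to 0.0442 for miR-181c-3p and -0.128 to 0.224 for the summed 5p strands. The ratio differences ran from -0.202 to 0.0637 for miR-181a-1-3p to miR-181a-5p, -0.234 to 0.0545 for miR-181a-2-3p to miR-181a-5p, -0.0131 to 0.178 for miR-181a-1-3p to miR-181a-2-3p, -0.0299 to 0.0599 for miR-181c-3p to miR-181c-5p, -0.0266 to 0.0376 for miR-181b-5p to miR-181a-5p, -0.19 to 0.103 for miR-181c-5p to miR-181a-5p and -0.107 to 0.011 for miR-181d-5p to miR-181c-5p.

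After median-of-ratios scaling the r of miR-181a-5p was -0.37 with miR-181a-1-3p, -0.377 with miR-181c-5p, -0.462 with miR-181c-3p and -0.0697 with miR-181d-5p. That of miR-181a-1-3p was -0.383 with miR-181b-5p, -0.183 with miR-181c-5p and -0.248 with miR-181d-5p, that of miR-181b-5p was -0.438 with miR-181c-5p and -0.319 with miR-181c-3p, and that of miR-181a-2-3p with miR-181d-5p was -0.013. Without sham 4 the r of miR-181a-5p was -0.168 with miR-181a-1-3p, -0.0444 with miR-181a-2-3p and -0.262 with miR-181c-3p. That of miR-181a-1-3p was -0.104 with miR-181b-5p, -0.508 with miR-181c-5p and -0.294 with miR-181d-5p, that of miR-181b-5p was -0.0139 with miR-181c-5p and -0.0587 with miR-181c-3p, and that of miR-181a-2-3p with miR-181d-5p was -0.262. On deviations from group means 0 of 21 pairs passed, against 1 in the main test.

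Libraries with the same replicate number did not deviate together, with correlations of -0.0553, -0.0558, -0.0111 and -0.313 over the tested miRNAs. Whether the numbers pair the libraries by design cannot be told from these values. With the replicate number as a block, limma called 0 of 605 miRNAs, and the log2 difference of the summed 5p strands was 0.0124 (exact sign-flip permutation p = 1, where 4 pairs allow no p under 0.125). Depth limited miR-181b-2-3p and miR-181d-3p to at most 9 reads a library, and neither was tested.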
